A study of Mus musculus with 25 samples.

Results

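The response of bone marrow-derived macrophages (BMDMs) to 12 h of IL-4 was measured by RNA-seq in 6 of the 25 samples of the study, 3 of control BMDMs and 3 of IL-4-treated BMDMs, chosen by their labels and not by their values. All were grown from the bone marrow of C57BL/6 mice in DMEM with foetal bovine serum and 25 ng/ml M-CSF for 4 days, a protocol that both groups share. The control BMDMs received no cytokine and are labelled as cultured for 4 h, whereas the treated cells received 10 ng/ml IL-4 for 12 h, so a difference in culture time cannot be told apart from the effect of the cytokine. The study's methods call the 3 samples of a group biological replicates with RNA prepared independently, without saying whether they came from separate mice. The p-values set each change against a spread between replicates that was partly shared across genes and estimated with IL-13 samples as well. A further 3 samples treated with 10 ng/ml IL-13 for 12 h entered the same fit and served as the closest comparison.

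IL-4 is a type 2 cytokine that binds a receptor made of IL-4Rα and either the common γ chain or IL-13Rα1. Receptor-bound Janus kinases phosphorylate STAT6, which dimerizes, enters the nucleus and binds palindromic sites at its target genes. In mouse macrophages this pathway is known for alternative activation, a state marked by arginase 1, chitinase-like proteins and the mannose receptor and associated with tissue repair, parasite defence and restraint of inflammatory responses.

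The counts on genes summed to 2577288 to 2776685 in control and 2495719 to 2718848 in IL-4-treated samples. The ribosomal precursor gene Rn45s took 34.9% to 38.1% and 30.8% to 39.8% of them, and 1678252 to 1717984 and 1561898 to 1726210 counts remained without it. Levels are given in CPM, the remaining counts scaled to a common library size with TMM factors. The lowest nonzero values below, near 0.6 CPM, stand for 1 count. The share of Rn45s reads on the opposite strand was 0.0386% to 0.0543% in control and 0.00996% to 0.0214% in IL-4-treated samples, a difference between the groups whose part in the results was not tested. In bulk RNA, fewer cells of a type and less RNA per cell cannot be told apart.

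Of the 24411 gene symbols in the files, 9252 had enough counts to be tested. In edgeR's quasi-likelihood test, genes with an FDR no higher than 0.01 and a change of 0.7 or more on the log2 scale were called upregulated or, with the opposite sign, downregulated. By these cutoffs 205 genes (2.22% of those tested) were upregulated and 152 (1.64%) were downregulated by IL-4. Larger changes were more often upward, with 117 upregulated and 66 downregulated genes that changed by 1 or more on the log2 scale. In all 357 the 3 IL-4 libraries lay beyond the 3 control libraries, a separation that 30.1% of all tested genes showed. The calls were retained with any 1 of the 6 libraries left out for 140 upregulated and 68 downregulated genes. The smallest changes inside the cutoffs were 0.70 and -0.70, the largest were those of Arg1 and Clec4n, and the median over all tested genes was -0.0061. An unadjusted p under 0.05 was reached by 2264 of the 9252 tested genes. Counts at that level in the lists below are to be read beside this share. Counts of called members are likewise to be read beside the 2.22% and 1.64% of all tested genes. Where a list lies near or under these shares, its calls describe the named genes and not the function.

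**Figure D1:**
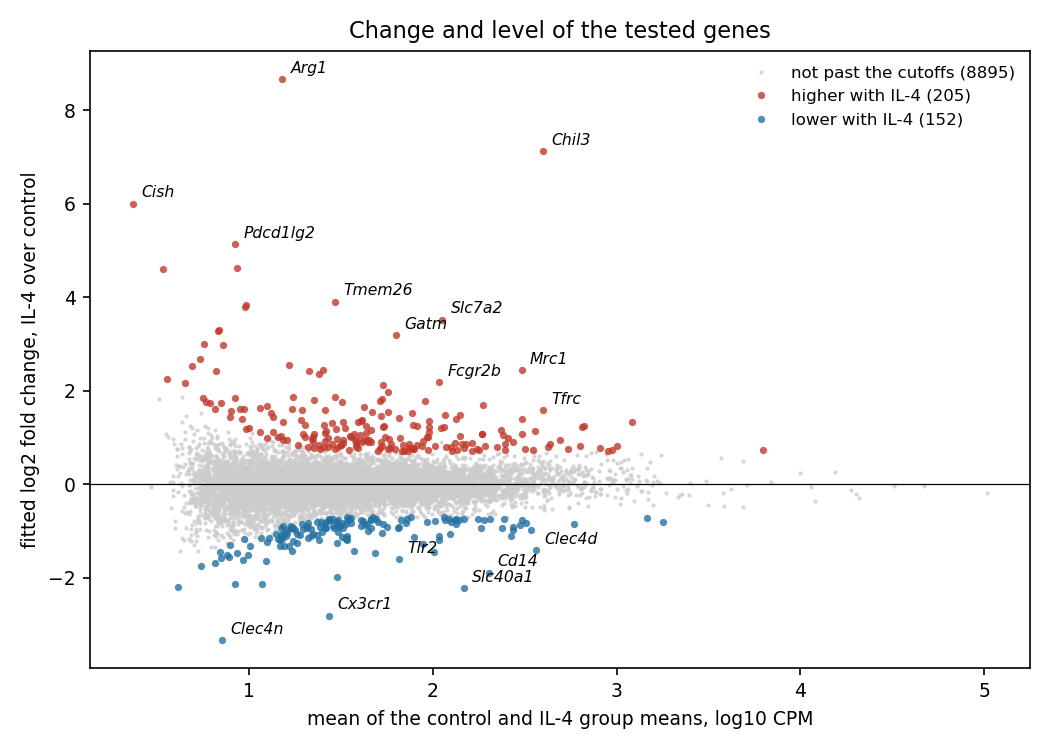
Fitted log2 fold change of IL-4-treated over control BMDMs (vertical axis) against the average of the 2 group means in log10 CPM (horizontal axis) for the 9252 tested genes. The 205 upregulated genes (red) reach far larger changes than the 152 downregulated genes (blue), and the fitted values of Arg1 and Cish rest on controls with 0 counts.

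The largest increases included the classical genes of alternative activation. Arg1, the arginase that turns arginine into ornithine and urea, had 0 counts in the 3 control samples and 32.5, 30.1 and 28.4 CPM in the 3 IL-4-treated samples. Against a limit of 3 counts over the whole control group, its level was at least 50.7-fold higher (FDR 4.3e-16). Chil3, which encodes the chitinase-like protein Ym1, had 6.58, 3.65 and 6.55 CPM in control and 739, 807 and 830.4 CPM in IL-4-treated BMDMs (log2 fold change 7.12 ± 0.145, FDR 2.73e-41). Reads of Chil3 may be shared with closely related chitinase-like genes, and its close relative Chil4 held at most 1 count in any of the 6 libraries. Mrc1, the mannose receptor CD206, had 102, 94.8 and 86.4 CPM in control and 510, 526 and 510.2 CPM in IL-4-treated BMDMs (log2 fold change 2.45 ± 0.0982, FDR 5.57e-27). For each of these genes the groups were far apart compared with the spread among the 3 samples of a group.

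Slc7a2, a cationic amino acid transporter that supplies arginine, rose from 15.6, 17.6 and 20.9 to 194, 220.3 and 209 CPM (log2 fold change 3.52 ± 0.145, FDR 1.25e-26). The PD-1 ligand gene Pdcd1lg2 had 2 counts over the control group and 81 over the IL-4 group, a ratio of 41.6 (95% exact interval 11.2 to 349, counting error only), and its FDR was 1.09e-10. Flt1, a receptor for VEGF, had 1.2, 1.22 and 1.19 CPM in control and 18.6, 19.1 and 16.5 CPM in IL-4-treated BMDMs (log2 fold change 3.83 ± 0.407, FDR 1.16e-10). Matk, a kinase that restrains SRC-family kinases, had 22.8, 22.5 and 25 CPM in control and 72.5, 84.3 and 84.5 CPM in IL-4-treated BMDMs (log2 fold change 1.77 ± 0.162, FDR 1.14e-12). Together, 7 of the 9 tested genes of the list of alternative activation markers were upregulated, 0 were downregulated, and the list's median log2 fold change was 3.52. The list, with 20 members in the files, was chosen with earlier results of these data known. Members with few control counts, such as Arg1 and Pdcd1lg2, could pass the count filter only through the cytokine-treated groups. The count and the median are therefore a description and not a test. The elastase Mmp12 (0.65, FDR 7.33e-08) lay just under the fold cutoff and the transglutaminase Tgm2 (0.28, FDR 0.0252) missed both.

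Other hallmark genes of this state had too few counts at 12 h to be tested. Retnla, which encodes the resistin-like protein Fizz1, had 0 counts in each control library and 4, 2 and 4 in the IL-4 libraries. Mgl2, a galactose-binding lectin, had 1, 0 and 0 control counts and 6, 3 and 6 with IL-4. Clec10a, another lectin of that kind, had 1 count in each control library and 5, 3 and 8 with IL-4. Cdh1, which encodes E-cadherin, had 0 counts in each control library and 4, 6 and 2 with IL-4. For these genes the IL-4 libraries held more counts than the control libraries, without a test. The chemokine genes Ccl17, Ccl22 and Ccl24 held between 0 and 5 counts in every library of either group, and Alox15 and Cd163 were at 0 in all 6, which allows up to 3 counts over each group.

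**Figure D2:**
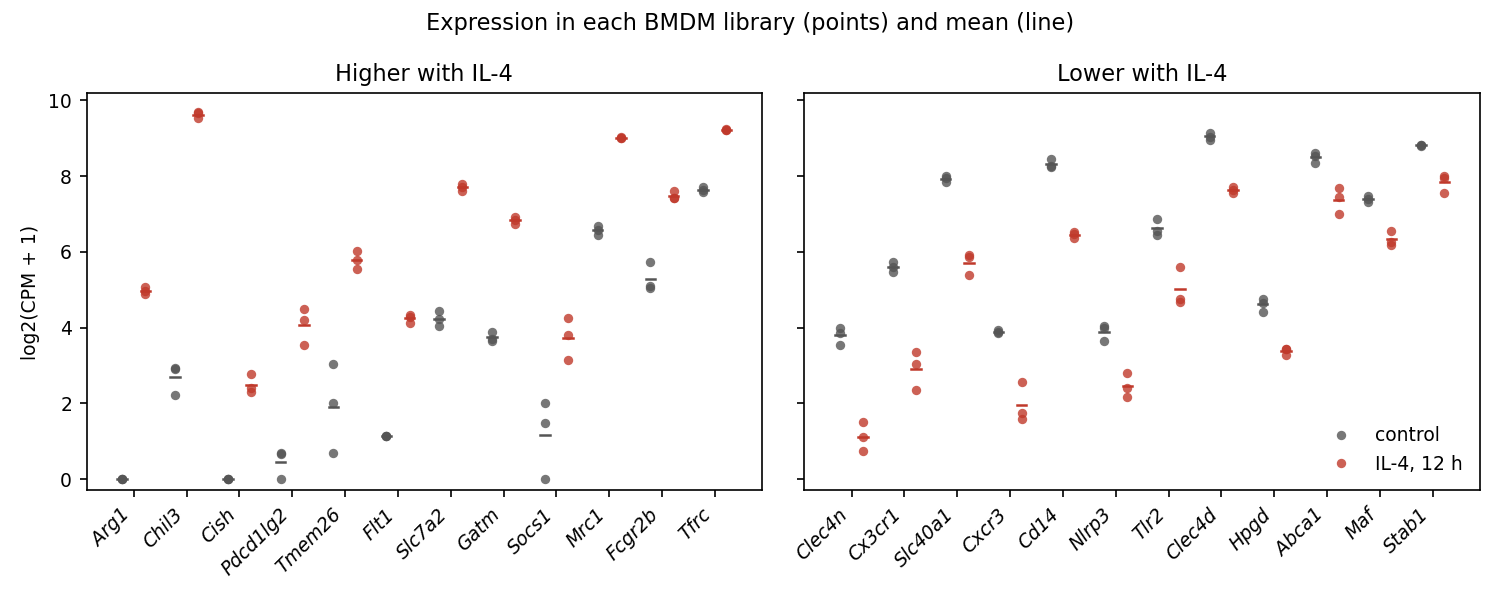
Levels of 12 upregulated (left) and 12 downregulated (right) genes as log2(CPM + 1), with a point for each of the 3 control (grey) and 3 IL-4 (red) libraries and a line at their mean. The groups do not overlap for any of these genes, and Arg1 and Cish are at 0 in all control libraries.

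STAT6 binds sites of the form TTC, 4 bases, GAA (TTCNNNNGAA), and other STAT proteins prefer 3 bases between these ends (TTCNNNGAA). Both forms are palindromic in their fixed letters, so a match counts for both strands, and the forms were counted separately, so a promoter can hold both. RefSeq promoters of the GRCm38.p6 build, 250 bases before to 50 after the start site, were matched by symbol for 164 of the 205 upregulated genes and 104 of the 152 downregulated genes. Printed here are the promoters of 4 upregulated genes with large changes that hold a match and of the β-glucan receptor gene Clec7a, which stands out by its high level, all chosen after their values were seen. Lower case letters run 5′ to 3′ on the strand of the gene and capitals mark the matches.
Cish, chr9:107296409-107296708, plus strand: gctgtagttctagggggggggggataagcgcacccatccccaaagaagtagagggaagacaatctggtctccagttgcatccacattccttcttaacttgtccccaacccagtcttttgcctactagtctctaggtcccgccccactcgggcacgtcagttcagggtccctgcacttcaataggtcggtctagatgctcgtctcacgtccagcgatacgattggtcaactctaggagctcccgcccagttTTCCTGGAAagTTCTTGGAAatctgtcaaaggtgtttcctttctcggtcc
Chil3, chr3:106167515-106167814, minus strand: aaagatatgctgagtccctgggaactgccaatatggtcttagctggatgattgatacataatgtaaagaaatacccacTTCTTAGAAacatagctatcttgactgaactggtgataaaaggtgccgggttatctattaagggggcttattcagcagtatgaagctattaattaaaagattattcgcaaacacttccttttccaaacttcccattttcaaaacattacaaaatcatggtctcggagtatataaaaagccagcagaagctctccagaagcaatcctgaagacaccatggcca
Pdcd1lg2, chr19:29410669-29410968, plus strand: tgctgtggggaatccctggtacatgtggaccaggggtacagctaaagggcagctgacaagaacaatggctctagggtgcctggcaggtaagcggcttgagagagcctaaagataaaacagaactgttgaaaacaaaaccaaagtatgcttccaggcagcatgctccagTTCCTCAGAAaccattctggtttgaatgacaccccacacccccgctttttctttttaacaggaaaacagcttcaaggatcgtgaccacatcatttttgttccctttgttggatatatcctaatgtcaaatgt
Tmem26, chr10:68723496-68723795, plus strand: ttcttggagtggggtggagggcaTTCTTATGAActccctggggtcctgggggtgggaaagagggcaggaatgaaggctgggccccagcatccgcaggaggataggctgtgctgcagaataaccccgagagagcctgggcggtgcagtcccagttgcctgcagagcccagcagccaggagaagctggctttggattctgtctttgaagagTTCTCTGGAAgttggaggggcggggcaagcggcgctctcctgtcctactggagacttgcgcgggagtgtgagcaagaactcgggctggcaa
Clec7a, chr6:129472730-129473029, minus strand: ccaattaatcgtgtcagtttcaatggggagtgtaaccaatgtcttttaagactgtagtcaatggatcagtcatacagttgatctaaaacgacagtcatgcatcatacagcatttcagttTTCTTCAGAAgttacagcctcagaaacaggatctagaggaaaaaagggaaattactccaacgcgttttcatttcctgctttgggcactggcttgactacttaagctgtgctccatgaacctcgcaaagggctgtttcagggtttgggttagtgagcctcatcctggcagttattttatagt

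The Cish promoter held 2 matches with 3 bases between the ends, the first at the start site and the second 11 bases after it, and Chil3 held 1 such match 172 bases before its start site. Matches with 4 bases between the ends lay 82 bases before the start site of Pdcd1lg2, 227 and 41 bases before that of Tmem26, and 131 bases before that of Clec7a. Shares are of genes with a promoter, and a gene can have more than 1. A match with 4 bases was found for 15 upregulated genes (9.15%), 7 downregulated genes (6.73%), 6.39% of tested genes and 8.01% of all genes. For the form with 3 bases the shares were 9.76%, 8.65%, 8.24% and 9.55%. The shares of the upregulated genes lay close to those of all genes with a promoter, and a match describes the letters of the window and not binding.

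Genes of the signalling pathway itself held 3 upregulated members, and 8 of the 16 tested had an unadjusted p under 0.05, of which 4 were negative. Cish, a SOCS-family inhibitor of cytokine signalling, had 0 counts in the control samples and 5.8, 4.31 and 3.96 CPM with IL-4, at least 7.87-fold higher than the limit of 3 counts (FDR 3.93e-05). Socs1, which blocks Janus kinases, had 0, 3.04 and 1.79 CPM in control and 18, 12.9 and 7.92 CPM in IL-4-treated BMDMs (log2 fold change 2.98 ± 0.462, FDR 2.02e-06). Jak2 itself had 71.8, 68.7 and 62 CPM in control and 150.3, 156 and 158 CPM in IL-4-treated BMDMs (log2 fold change 1.19 ± 0.113, FDR 3.9e-12). Socs2 reached 1.33 ± 0.479 but did not pass the test (FDR 0.0555). Cish, Socs1 and Jak2 were the called members, with none downregulated.

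The receptor and its main transducer had smaller fold changes. Il4ra, which encodes the shared IL-4Rα chain, had 120.3, 109 and 129.9 CPM in control and 104, 105 and 102 CPM in IL-4-treated BMDMs (log2 fold change -0.20 ± 0.111). Il13ra1 lay at -0.41 (FDR 0.105), Il2rg, which encodes the common γ chain, at 0.0073 (FDR 0.99) and Jak1 at 0.046 (FDR 0.831). Stat6 had 287, 295 and 308 CPM in control and 331, 311 and 331 CPM in IL-4-treated BMDMs (log2 fold change 0.13 ± 0.0881, FDR 0.395). None of them passed the cutoffs, and the median over the 16 tested members of this list was 0.016.

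Of 25 tested transcription factors (TFs) associated with alternative activation, 9 were upregulated and 1 was downregulated, with a median log2 fold change of 0.34. This list too was chosen with earlier results known. The study had reported members such as Egr2, Myc, Irf4 and Batf3 as induced in these same samples, so the count is a description and not a test. Batf3, an AP-1 family factor, had 0.599, 1.82 and 1.19 CPM in control and 8.12, 17.2 and 12.5 CPM in IL-4-treated BMDMs (log2 fold change 3.31 ± 0.472, FDR 3.22e-07). Irf4, an interferon regulatory factor known to drive M2 gene expression, had 2.39, 1.22 and 0.596 CPM in control and 11, 9.85 and 7.26 CPM in IL-4-treated BMDMs (log2 fold change 2.69 ± 0.475, FDR 2.51e-05). Egr2, a zinc finger factor induced by STAT6, had 20.4, 31.6 and 17.9 CPM in control and 77.2, 78.8 and 91.8 CPM in IL-4-treated BMDMs (log2 fold change 1.82 ± 0.165, FDR 8.74e-13). For all 3 genes the IL-4 values lay above the controls, although the counts behind Batf3 and Irf4 were low.

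Smaller increases were measured for Bhlhe40 (log2 fold change 1.23 ± 0.125), a basic helix-loop-helix repressor, for Tfec (1.32 ± 0.264) and Mitf (0.81 ± 0.0991), related factors of lysosomal and osteoclast genes, for the nuclear lipid receptor Pparg (0.96 ± 0.145) and for Irf1 (0.85 ± 0.135). Myc had 10.2, 18.8 and 11.3 CPM in control and 36.5, 24.6 and 19.1 CPM in IL-4-treated BMDMs (log2 fold change 1.01 ± 0.244, FDR 0.00249), and it lost its call without control replicate 1 (FDR 0.026), control replicate 3 (FDR 0.0215) or IL-4 replicate 1 (FDR 0.0985). The downregulated member was Maf, a factor that supports Il10 and resident macrophage genes, with 177, 168 and 158 CPM in control and 92.8, 75.7 and 71.3 CPM in IL-4-treated BMDMs (log2 fold change -1.06 ± 0.119, FDR 5.87e-10). Klf4 had a log2 fold change of 1.47 at an FDR of 0.0368, and Ahr of 0.68 at 0.307. The lineage factors Spi1 (-0.058) and Irf8 (-0.13) did not pass the test, and Cebpa passed the FDR only (0.34 ± 0.0839, FDR 0.00321).

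Among the remaining genes with the largest increases were several without a place in the marker list. Gatm, which makes guanidinoacetate from arginine in creatine synthesis, had 13.8, 11.6 and 11.9 CPM in control and 114, 121 and 105 CPM in IL-4-treated BMDMs (log2 fold change 3.19 ± 0.17, FDR 1.69e-21). Tmem26, which encodes a transmembrane protein, had 0.599, 3.04 and 7.15 CPM in control and 54, 64.6 and 46.2 CPM in IL-4-treated BMDMs (log2 fold change 3.91 ± 0.289, FDR 6.84e-15), and its control values ranged widely without approaching those of the IL-4 group. F10, which encodes coagulation factor X, had 0.599, 2.43 and 0.596 CPM in control and 13.9, 20.9 and 18.5 CPM in IL-4-treated BMDMs (log2 fold change 3.80 ± 0.44, FDR 1.36e-09). Among 5 tested coagulation genes, looked up after the values were seen, F10 and F7 were upregulated.

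The actin-binding gene Ablim1 had 3 counts over the control group and 81 with IL-4, a ratio of 27.7 (95% exact interval 9.16 to 137), and Rasgrp1, an activator of RAS, had 1 and 32, a ratio of 32.9 (5.49 to 1338). Both exceeded their control libraries in each IL-4 library, at FDRs of 5.25e-11 and 2.13e-05. Ceacam19 (3.28 ± 0.459) and the nucleotide exchange factor Mcf2l (2.995 ± 0.517) complete the 15 genes with the largest increases among those with a mean of at least 5 CPM in the IL-4 group, a limit that leaves out Cish.

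**Figure D3:**
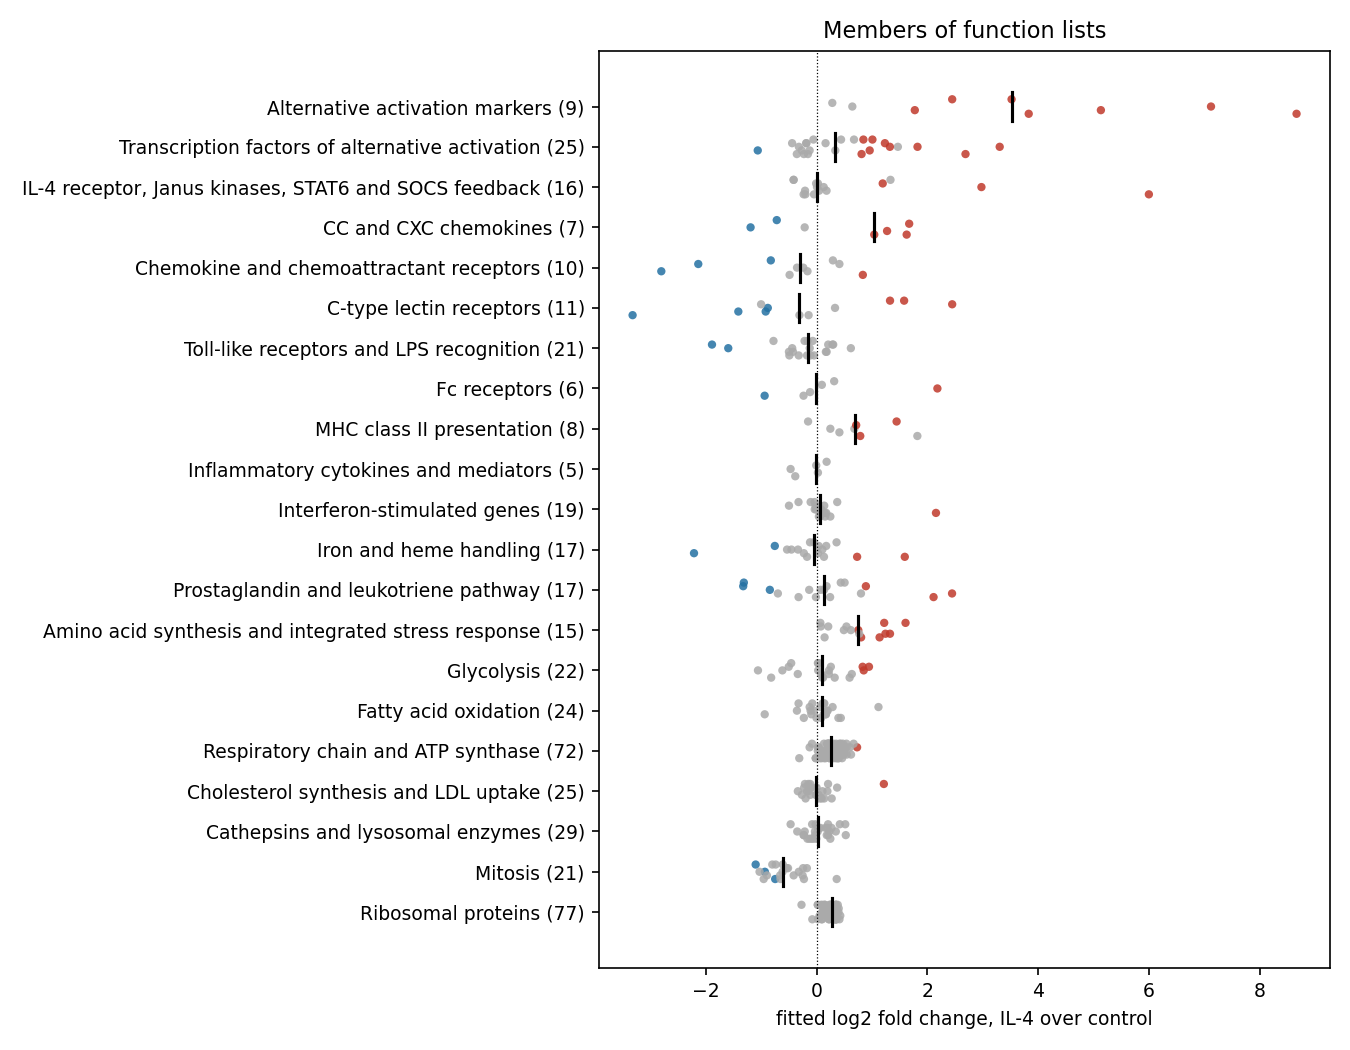
Fitted log2 fold change of IL-4-treated over control BMDMs for each tested member (point) of 21 function lists, with the number tested in brackets. Red points were upregulated, blue points downregulated and grey points were not called, some of them past 1 of the 2 cutoffs, and black lines mark medians, which range from -0.61 for mitosis to 3.52 for alternative activation markers.

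In arginine, polyamine and nitric oxide metabolism, Arg1 and Slc7a2 were the 2 upregulated genes among 15 tested, and 0 were downregulated. The polyamine enzymes Odc1 (0.24, FDR 0.367) and Srm (0.43, FDR 0.114) did not pass the cutoffs. The inducible nitric oxide synthase gene Nos2, which competes with arginase for arginine, had 0 counts in all 6 libraries.

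Genes of antigen presentation and of T cell regulation showed increases in a few members. Cd274, the gene of PD-L1, had 89.8, 95.4 and 81.6 CPM in control and 286, 297 and 284 CPM in IL-4-treated BMDMs (log2 fold change 1.70 ± 0.101, FDR 1.16e-19), and with Pdcd1lg2 it made up the 2 upregulated of 10 tested costimulatory and checkpoint ligands. The costimulatory genes Cd80 (-0.62, FDR 0.386) and Cd86 (-0.21, FDR 0.791) did not pass. In the MHC class II list, 3 of 8 tested genes were upregulated and 0 downregulated, and the median was 0.70. H2-DMa, a peptide-exchange factor, had 5.39, 6.69 and 9.53 CPM in control and 19.7, 16 and 23.8 CPM in IL-4-treated BMDMs (log2 fold change 1.45 ± 0.281, FDR 0.000126).

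The class II chain gene H2-Aa had 20.9, 19.4 and 19.1 CPM in control and 38.9, 32.6 and 31 CPM in IL-4-treated BMDMs (log2 fold change 0.79 ± 0.207, FDR 0.00551), and its call did not hold without control replicate 1 (FDR 0.0119), control replicate 2 (FDR 0.0201), control replicate 3 (FDR 0.0241), IL-4 replicate 1 (FDR 0.0597), IL-4 replicate 2 (FDR 0.0175) or IL-4 replicate 3 (FDR 0.0106). The invariant chain gene Cd74 had 52.1, 52.9 and 50 CPM in control and 87, 88.6 and 78.5 CPM in IL-4-treated BMDMs (log2 fold change 0.71 ± 0.137, FDR 9.83e-05) and fell under the fold cutoff without control replicate 3 (log2 fold change 0.70), IL-4 replicate 1 (log2 fold change 0.70) or IL-4 replicate 2 (log2 fold change 0.69). The change of H2-Aa is near the limit of what 3 samples per group resolved. Cd74 kept an FDR of 0.00105 to 0.00226 in the fits named and lay near the fold cutoff. The transactivator Ciita reached 1.82 without passing (FDR 0.0263). In the class I list, the immunoproteasome subunit Psmb10 (log2 fold change 1.13 ± 0.126, FDR 5.31e-10) was the upregulated gene among 16 tested.

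Fc receptors moved in opposite directions. Fcgr2b, the inhibitory IgG receptor, had 32.3, 33.4 and 51.8 CPM in control and 171, 193 and 171 CPM in IL-4-treated BMDMs (log2 fold change 2.18 ± 0.134, FDR 4.51e-19). Fcgr1, the high-affinity activating receptor, had 58.7, 61.4 and 63.1 CPM in control and 34.8, 32.6 and 27.7 CPM in IL-4-treated BMDMs (log2 fold change -0.94 ± 0.158, FDR 9.65e-06). The groups of both genes were separate, while Fcgr3 (0.32), Fcgr4 (-0.12) and the signalling chain gene Fcer1g (0.095) did not pass the cutoffs.

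Recognition of bacterial products was represented by 2 downregulated and 0 upregulated genes among 21 tested. Cd14, the co-receptor that hands LPS to TLR4, had 299.9, 309 and 353 CPM in control and 90.5, 87.4 and 81.2 CPM in IL-4-treated BMDMs (log2 fold change -1.89 ± 0.106, FDR 1.42e-20). Tlr2, the receptor of bacterial lipoproteins, had 86.8, 93.6 and 116 CPM in control and 26.1, 47.4 and 24.4 CPM in IL-4-treated BMDMs (log2 fold change -1.60 ± 0.163, FDR 9.85e-11). Even the highest IL-4 library of either gene lay well under its lowest control library. Tlr4 (0.17, FDR 0.31), Ly96 (-0.32, FDR 0.604) and the adaptor Myd88 (-0.16, FDR 0.579) did not pass, and the median of the list was -0.16.

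The inflammasome sensor Nlrp3 had 15.6, 11.6 and 14.9 CPM in control and 3.48, 4.31 and 5.94 CPM in IL-4-treated BMDMs (log2 fold change -1.61 ± 0.341, FDR 0.000435), whereas its adaptor Pycard had 64, 56.5 and 54.8 CPM in control and 97.5, 94.1 and 104 CPM in IL-4-treated BMDMs (log2 fold change 0.75 ± 0.124, FDR 7.73e-06). They were the called genes among 13 of this group, 1 in each direction, and DESeq2 did not call Nlrp3. Of the inflammatory cytokines and mediators, 5 of 20 were tested and 0 were called by edgeR or DESeq2, with 1 at an unadjusted p under 0.05. Tnf was at -0.39 (FDR 0.19) and Csf1 at 0.024 (FDR 0.953). Il6, Il12a, Il12b, Il23a, Csf2 and Csf3 held at most 1 count in any library of either group. Of 19 tested interferon-stimulated genes Zbp1 was called (log2 fold change 2.16 ± 0.52, FDR 0.00243), and it lost its call without control replicate 2 (FDR 0.0178), control replicate 3 (FDR 0.0299), IL-4 replicate 1 (FDR 0.0167) or IL-4 replicate 2 (FDR 0.0114).

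C-type lectin receptors, which sense carbohydrates on microbes and damaged cells, split between the directions. Of 11 tested, 3 were upregulated and 4 downregulated. Clec4n, the gene of dectin-2, had 15, 13.4 and 10.7 CPM in control and 1.16, 1.85 and 0.66 CPM in IL-4-treated BMDMs (log2 fold change -3.32 ± 0.478, FDR 3.81e-07), the largest decrease among all downregulated genes. Clec4d, a neighbouring receptor of mycobacterial glycolipid, had 527, 498 and 565 CPM in control and 198, 209 and 189 CPM in IL-4-treated BMDMs (log2 fold change -1.41 ± 0.0901, FDR 2.03e-18). In the other direction, Mrc1 rose as given above, and Clec4a3 had 12, 16.4 and 10.7 CPM in control and 37.7, 38.1 and 41.6 CPM in IL-4-treated BMDMs (log2 fold change 1.58 ± 0.202, FDR 1.93e-08). Reads of the closely related Clec4a genes may be split between them, so the value of Clec4a3 is uncertain. Clec7a, named for its promoter, had 710, 676 and 689.9 CPM in control and 1738, 1728 and 1740 CPM in IL-4-treated BMDMs (log2 fold change 1.33 ± 0.0853, FDR 2.62e-18), and its 3 IL-4 libraries hardly differed.

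Among scavenger and apoptotic cell receptors, 2 of 17 tested genes rose and 2 fell. Stab1, an endocytic scavenger receptor, had 454, 456 and 446 CPM in control and 247, 256 and 188 CPM in IL-4-treated BMDMs (log2 fold change -0.97 ± 0.0959, FDR 1.38e-11). Gas6, a bridging ligand between apoptotic cells and TAM receptors, had 390.3, 389.6 and 379 CPM in control and 223, 200 and 212 CPM in IL-4-treated BMDMs (log2 fold change -0.87 ± 0.0895, FDR 4.55e-11). The integrin chain gene Itgb3 had 19.8, 20.1 and 20.9 CPM in control and 44.1, 54.8 and 41.6 CPM in IL-4-treated BMDMs (log2 fold change 1.21 ± 0.178, FDR 6.96e-07). Anxa1, a phospholipid-binding protein gene, was called at 0.73 but fell under the fold cutoff without control replicate 3 (log2 fold change 0.64) or IL-4 replicate 3 (log2 fold change 0.66). The receptors Msr1 (-0.47), Cd36 (0.47) and Mertk (-0.31) did not pass the cutoffs.

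Chemokines also divided by direction, with 4 of 7 tested genes upregulated and 2 downregulated. Ccl2, which attracts monocytes, had 4.19, 4.86 and 7.75 CPM in control and 17.4, 20.3 and 14.5 CPM in IL-4-treated BMDMs (log2 fold change 1.63 ± 0.305, FDR 7.02e-05). Ccl6 had 49.7, 46.2 and 40.5 CPM in control and 98.1, 119 and 113 CPM in IL-4-treated BMDMs (log2 fold change 1.27 ± 0.131, FDR 4.55e-11). Ccl7 had 4.79, 5.47 and 7.75 CPM in control and 17.4, 28.9 and 11.2 CPM in IL-4-treated BMDMs (log2 fold change 1.67 ± 0.31, FDR 5.93e-05), with a call that did not hold without IL-4 replicate 2 (FDR 0.0105). Ccl3, an inflammatory chemokine, had 36.5, 37.7 and 26.2 CPM in control and 13.3, 17.8 and 12.5 CPM in IL-4-treated BMDMs (log2 fold change -1.19 ± 0.22, FDR 5.16e-05). The monocyte chemoattractants were thus higher and Ccl3 lower in all 3 IL-4 libraries than in any control library.

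Of 10 tested chemokine and chemoattractant receptors, 1 was upregulated and 3 were downregulated. Cx3cr1, the fractalkine receptor of monocytes and resident macrophages, had 43.7, 52.3 and 47.7 CPM in control and 4.06, 9.23 and 7.26 CPM in IL-4-treated BMDMs (log2 fold change -2.80 ± 0.233, FDR 4.47e-14). Cxcr3, the receptor of interferon-induced chemokines, had 14.4, 13.4 and 13.7 CPM in control and 2.32, 4.92 and 1.98 CPM in IL-4-treated BMDMs (log2 fold change -2.14 ± 0.381, FDR 2.92e-05). C5ar1, the receptor of the complement fragment C5a, had 430.4, 427 and 379.5 CPM in control and 233, 207 and 257 CPM in IL-4-treated BMDMs (log2 fold change -0.83 ± 0.0982, FDR 2.85e-09). These 3 receptors were lower in every IL-4 library. Ccr1 was called at 0.83 (FDR 0.00855), and the call did not hold without control replicate 1 (FDR 0.0619), control replicate 2 (FDR 0.0157), control replicate 3 (FDR 0.0182), IL-4 replicate 1 (FDR 0.0865) or IL-4 replicate 3 (FDR 0.04).

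The prostanoid pathway held 3 upregulated and 3 downregulated genes among 17 tested. Ptgs1, the constitutive cyclooxygenase COX-1, had 4.79, 7.9 and 10.7 CPM in control and 48.7, 44.3 and 35 CPM in IL-4-treated BMDMs (log2 fold change 2.45 ± 0.232, FDR 3.9e-12). Ptgir, the prostacyclin receptor, had 18.6, 20.1 and 21.4 CPM in control and 81.2, 91.7 and 87.8 CPM in IL-4-treated BMDMs (log2 fold change 2.11 ± 0.155, FDR 4.3e-16). Hpgd, which inactivates prostaglandins, had 20.4, 24.3 and 26.2 CPM in control and 8.7, 9.85 and 9.9 CPM in IL-4-treated BMDMs (log2 fold change -1.31 ± 0.251, FDR 9.48e-05). Ptger4, a receptor of prostaglandin E2, had 23.4, 18.2 and 22 CPM in control and 10.4, 7.38 and 7.26 CPM in IL-4-treated BMDMs (log2 fold change -1.33 ± 0.261, FDR 0.00016). A synthesis enzyme and a receptor were therefore higher, and a degrading enzyme and another receptor lower, while the inducible cyclooxygenase Ptgs2 was at 0.18 (FDR 0.668). In the complement list, C3, the central component, had 8.98, 12.8 and 8.34 CPM in control and 34.2, 37.5 and 33.7 CPM in IL-4-treated BMDMs (log2 fold change 1.804 ± 0.242, FDR 7.14e-08), and the C1q genes C1qa (-0.053), C1qb (-0.026) and C1qc (0.11) did not pass.

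Iron handling showed 2 upregulated and 2 downregulated genes among 17 tested. Slc40a1, which encodes ferroportin, the exporter of cellular iron, had 246, 256 and 229 CPM in control and 56.9, 59.1 and 40.9 CPM in IL-4-treated BMDMs (log2 fold change -2.21 ± 0.124, FDR 1.24e-20). Tfrc, the transferrin receptor that takes up iron, had 189, 199 and 208 CPM in control and 609, 591 and 599 CPM in IL-4-treated BMDMs (log2 fold change 1.59 ± 0.0931, FDR 6.58e-20). Slc11a1, the phagosomal metal transporter NRAMP1, had 238, 230.4 and 248 CPM in control and 142, 146 and 137 CPM in IL-4-treated BMDMs (log2 fold change -0.75 ± 0.098, FDR 3.11e-08). Importer and exporter thus moved in opposite directions, each with separate groups. Hfe, a partner of the transferrin receptor, was called at 0.73 but fell under the fold cutoff without control replicate 2 (log2 fold change 0.64) or IL-4 replicate 3 (log2 fold change 0.69). The ferritin genes Fth1 (-0.45, FDR 5e-06) and Ftl1 (-0.049, FDR 0.763) stayed within the cutoffs, as did the heme oxygenase Hmox1 (-0.34, FDR 0.025).

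Amino acid synthesis and the integrated stress response, a programme under the factor ATF4, had 7 upregulated genes of 15 tested and 0 downregulated, with a median of 0.75. Trib3, a pseudokinase, had 5.39, 6.08 and 2.38 CPM in control and 15.1, 14.8 and 12.5 CPM in IL-4-treated BMDMs (log2 fold change 1.61 ± 0.335, FDR 0.00037). Asns, asparagine synthetase, had 20.9, 26.1 and 19.7 CPM in control and 47, 57.8 and 63.4 CPM in IL-4-treated BMDMs (log2 fold change 1.33 ± 0.173, FDR 3.4e-08). Mthfd2, a mitochondrial folate enzyme, had 25.7, 35.9 and 34.6 CPM in control and 68.5, 81.2 and 78.5 CPM in IL-4-treated BMDMs (log2 fold change 1.24 ± 0.149, FDR 3.56e-09). The factor Atf5 had 32.9, 31 and 33.4 CPM in control and 81.8, 81.2 and 63.4 CPM in IL-4-treated BMDMs (log2 fold change 1.22 ± 0.173, FDR 5.71e-07). All 15 members had positive fold changes. Of the unfolded protein response, 1 of 18 tested genes was called, the disulfide isomerase Pdia4 (log2 fold change 0.79 ± 0.112, FDR 3.01e-07), and the chaperone Hspa5 lay at 0.054 (FDR 0.782).

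In glycolysis, 3 of 22 tested genes were upregulated and 0 downregulated. They were Pfkfb4 (log2 fold change 0.95 ± 0.165, FDR 2.04e-05) and Pfkp (log2 fold change 0.85 ± 0.125, FDR 6.05e-07), of the phosphofructokinase step, and the glucose transporter Slc2a1 (log2 fold change 0.83 ± 0.184, FDR 0.000802). Later enzymes such as Gapdh (0.22) and Pkm (0.024) did not pass the cutoffs. The list was mixed, with 14 of 22 genes at an unadjusted p under 0.05, 8 upward and 6 downward. Its lowest log2 fold change was -1.06, in a gene that was not called. Of 24 tested genes of fatty acid oxidation, 21 of the tricarboxylic acid cycle and 15 of fatty acid synthesis, 0 were called by edgeR or DESeq2, with 5, 8 and 5 at an unadjusted p under 0.05. The rate-limiting Cpt1a of fatty acid oxidation lay at 0.082 (FDR 0.734), and the coactivator Ppargc1b at 1.12 (FDR 0.11), with 1.8, 3.04 and 3.58 CPM in control and 5.22, 7.38 and 5.94 CPM in IL-4-treated BMDMs.

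Of 72 tested respiratory chain and ATP synthase genes 1 was called, Ndufa12 at 0.73 (FDR 0.00365), whose call did not hold without control replicate 1 (FDR 0.021), control replicate 2 (FDR 0.03), IL-4 replicate 1 (FDR 0.028) or IL-4 replicate 2 (FDR 0.0673). The median of that list was 0.26 and that of 77 ribosomal protein genes was 0.27, both above the median of all genes. Of the ribosomal protein genes 75 had positive fold changes and 55 an unadjusted p under 0.05, all of these upward, but 0 were called by edgeR or DESeq2. In cholesterol synthesis and LDL uptake, Dhcr7, of the last step of cholesterol synthesis, had 63.5, 55.9 and 52.4 CPM in control and 139.8, 138 and 121 CPM in IL-4-treated BMDMs (log2 fold change 1.21 ± 0.123, FDR 3.12e-11), and the other 24 tested genes did not pass. The lipid exporter Abca1 had 369, 326 and 394 CPM in control and 205, 175 and 127 CPM in IL-4-treated BMDMs (log2 fold change -1.10 ± 0.112, FDR 1.96e-10), the called gene among 15 of lipid efflux and storage, and Abca9, a related transporter, had 45.5, 56.5 and 41.7 CPM in control and 10.4, 12.9 and 13.2 CPM in IL-4-treated BMDMs (log2 fold change -1.97 ± 0.203, FDR 4.49e-11).

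Of 29 tested lysosomal enzymes and cathepsins 0 were called by edgeR or DESeq2, with 13 at an unadjusted p under 0.05 and a median of 0.02. The proton pump was represented by 2 upregulated genes of 16, Atp6v0d2 with 681, 703 and 779.9 CPM in control and 1246, 1224 and 1369 CPM in IL-4-treated BMDMs (log2 fold change 0.83 ± 0.0803, FDR 8.43e-12) and Atp6v0a1 with 488, 465 and 425 CPM in control and 844, 769 and 809.9 CPM in IL-4-treated BMDMs (log2 fold change 0.81 ± 0.081, FDR 1.62e-11). Both are membrane-sector subunits, and the other 14 had log2 fold changes under the cutoff or did not pass the test. Of 12 genes of NADPH oxidase and antioxidant enzymes, 2 were downregulated. The oxidase subunit Cybb had 1817, 1917 and 1735 CPM in control and 1039, 1087 and 1214 CPM in IL-4-treated BMDMs (log2 fold change -0.71 ± 0.0782) and fell under the fold cutoff without control replicate 2 (log2 fold change -0.67), IL-4 replicate 1 (log2 fold change -0.66) or IL-4 replicate 2 (log2 fold change -0.69). Catalase, Cat, was at -0.77 and did so without IL-4 replicate 1 (log2 fold change -0.67).

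Matrix and repair genes were represented by few calls. Mmp13, a collagenase, had 8.38, 7.29 and 6.55 CPM in control and 27.9, 30.1 and 23.8 CPM in IL-4-treated BMDMs (log2 fold change 1.87 ± 0.247, FDR 4.57e-08) and was the called gene among 27 of the matrix list. Vegfa was called lower at -0.77 (FDR 0.008), and its call did not hold without control replicate 1 (FDR 0.0111), control replicate 3 (FDR 0.205), IL-4 replicate 1 (FDR 0.0444), IL-4 replicate 2 (FDR 0.0617) or IL-4 replicate 3 (FDR 0.0166). Igf1 lay at 0.64 (FDR 1.75e-09), and Mmp9 at -1.43 (FDR 0.0575). Among adhesion molecules, Cd151, a tetraspanin, was upregulated (log2 fold change 0.85 ± 0.109, FDR 1.93e-08) with Itgb3, and Itga6 was at -0.75 ± 0.095, under the fold cutoff without control replicate 2 (log2 fold change -0.66). Of 14 BCL2 family genes Bcl2a1b was upregulated (log2 fold change 0.86 ± 0.0989, FDR 1e-09). Its reads may be shared with near-identical copies, of which Bcl2a1d was at 0.43 (FDR 0.404).

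Of 19 tested feedback inhibitors of TLR and MAPK signalling, 3 were upregulated, 1 was downregulated and 14 had negative fold changes, with a median of -0.23, and of 17 immediate early genes 3 were upregulated and 1 downregulated. Dusp4, a MAPK phosphatase, had 42.5, 33.4 and 30.4 CPM in control and 95.2, 101 and 89.8 CPM in IL-4-treated BMDMs (log2 fold change 1.43 ± 0.141, FDR 1.54e-11). Zc3h12a, the mRNA-degrading regnase-1, had 34.7, 28 and 32.8 CPM in control and 61.5, 57.8 and 60.7 CPM in IL-4-treated BMDMs (log2 fold change 0.91 ± 0.156, FDR 1.39e-05). Ier3, a stress-induced survival gene, had 4.79, 1.22 and 8.34 CPM in control and 24.9, 33.8 and 26.4 CPM in IL-4-treated BMDMs (log2 fold change 2.54 ± 0.297, FDR 1.72e-09). Each was higher in all 3 IL-4 libraries. Dusp2 was upregulated too (1.03 ± 0.259), but not without control replicate 1 (FDR 0.0401), IL-4 replicate 1 (FDR 0.0248) or IL-4 replicate 2 (FDR 0.0168). Dusp1, the downregulated member of both lists, had 50.9, 43.8 and 72.1 CPM in control and 38.3, 25.8 and 27.1 CPM in IL-4-treated BMDMs (log2 fold change -0.86 ± 0.174, FDR 0.000241), and its call did not hold without control replicate 3 (FDR 0.0223) or IL-4 replicate 2 (FDR 0.011). Nfil3, a factor that opposes clock activators, had 5.99, 8.51 and 5.36 CPM in control and 40, 34.5 and 33 CPM in IL-4-treated BMDMs (log2 fold change 2.43 ± 0.239, FDR 1.15e-11). The clock output gene Dbp was at -1.31 ± 0.325 and lost its call without control replicate 3 (FDR 0.0534), IL-4 replicate 1 (FDR 0.0312) or IL-4 replicate 3 (FDR 0.02), and Per1 was at -1.15 ± 0.282 and lost it without control replicate 1 (FDR 0.02), IL-4 replicate 1 (FDR 0.0162), IL-4 replicate 2 (FDR 0.0122) or IL-4 replicate 3 (FDR 0.0207). The clock list, with 2 upregulated and 2 downregulated genes among 12, stands beside a difference in culture time between the groups, which cannot be told apart from the cytokine.

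Of 21 tested mitosis genes, 3 were downregulated, 0 were upregulated and 20 had negative fold changes, with a median of -0.61. Ccna2, cyclin A, had 26.9, 34.6 and 27.4 CPM in control and 13.3, 11.1 and 17.2 CPM in IL-4-treated BMDMs (log2 fold change -1.10 ± 0.219, FDR 0.000194). Mki67, the proliferation antigen Ki-67, had 35.3, 35.2 and 32.2 CPM in control and 15.1, 29.5 and 16.5 CPM in IL-4-treated BMDMs (log2 fold change -0.75 ± 0.205, FDR 0.00832), and its call did not hold without control replicate 1 (FDR 0.0276), control replicate 2 (FDR 0.028), control replicate 3 (FDR 0.0149), IL-4 replicate 1 (FDR 0.113) or IL-4 replicate 3 (FDR 0.0793). Top2a was at -0.93 ± 0.251 and did not hold without control replicate 1 (FDR 0.0294), control replicate 2 (FDR 0.0175), control replicate 3 (FDR 0.015), IL-4 replicate 2 (FDR 0.0678) or IL-4 replicate 3 (FDR 0.0604). Leaving out a library cost Mki67 and Top2a their calls while their fold changes stayed negative, and Ccna2 kept its call in each such fit. Of 25 tested DNA replication genes 0 were called by edgeR or DESeq2, with 3 at an unadjusted p under 0.05 and a median of -0.15. Of 16 tested D cyclins, CDKs and CDK inhibitors, 1 was upregulated, 2 were downregulated and 13 had negative fold changes. Cdkn1a, the CDK inhibitor p21, had 28.1, 29.2 and 28.6 CPM in control and 56.3, 52.3 and 52.8 CPM in IL-4-treated BMDMs (log2 fold change 0.91 ± 0.158, FDR 1.87e-05). The related inhibitor Cdkn1c was lower, at -0.84 ± 0.218, with a call that did not hold without control replicate 2 (FDR 0.13), IL-4 replicate 1 (FDR 0.0118), IL-4 replicate 2 (FDR 0.0244) or IL-4 replicate 3 (FDR 0.0624), and the cyclin gene Ccng2 was at -0.74 ± 0.153 and fell under the fold cutoff without control replicate 1 (log2 fold change -0.69) or IL-4 replicate 1 (log2 fold change -0.68).

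Replication-dependent histone genes, whose mRNAs end in a stem-loop and not a poly(A) tail, were grouped after the values were seen. Of 47 tested, 12 were downregulated, 0 were upregulated and 45 had negative fold changes, with a median of -0.70. The count of downregulated members was 4 to 11 with a library left out. Their coding sequences are similar, so reads may be shared between copies. The labels name the RNA as polyA while the protocol describes removal of ribosomal RNA, and the part of RNA selection in these values was not tested.

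Further lists held few or no called genes. Of 11 tested cytosolic heat shock proteins, 7 purinergic receptors and ectonucleotidases, 29 ribosome biogenesis genes, 15 TGF-β receptors and SMADs and 6 nuclear or snoRNA-host long noncoding RNAs, 0 were called by edgeR or DESeq2, with 7, 3, 9, 4 and 3 at an unadjusted p under 0.05. The chaperone Hspa8 lay at 0.35 (FDR 0.000574), the ectonucleotidase Entpd1 at -0.55 (FDR 3.76e-06) and the nucleolar Npm1 at 0.30 (FDR 0.0193). Il10ra, the ligand-binding chain of the IL-10 receptor, was the called gene among 6 anti-inflammatory cytokines and decoys, with 195, 173 and 184 CPM in control and 108, 116 and 107 CPM in IL-4-treated BMDMs (log2 fold change -0.74 ± 0.106), and fell under the fold cutoff without control replicate 1 (log2 fold change -0.69). Gsr, glutathione reductase, was the called gene among 17 NRF2 antioxidant genes (log2 fold change -0.78 ± 0.172, FDR 0.000766) and lost its call without control replicate 3 (FDR 0.0136) or IL-4 replicate 3 (FDR 0.0194). In each list direction with 0 calls by edgeR, DESeq2 also gave 0. Of the genes called by edgeR and described above, DESeq2 did not call Ccr1, Cdkn1c, Dbp, Dusp2, Gsr, H2-Aa, Mki67, Myc, Ndufa12, Nlrp3, Per1, Top2a, Vegfa and Zbp1.

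The cells carried the defining markers of macrophages in both groups. Csf1r, the M-CSF receptor, had 822, 673 and 735 CPM in control and 754, 855 and 712 CPM in IL-4-treated BMDMs, and Adgre1, a classical surface marker of mouse macrophages, had 1161, 1112 and 971 CPM in control and 1185, 1183 and 1106 CPM in IL-4-treated BMDMs. Neither passed the cutoffs (FDR 0.744 and 0.47). Over the whole macrophage list 3 fold changes were positive and 7 negative, with a median of -0.25. An unadjusted p under 0.05 was reached by 6 members, all of them lower with IL-4. Of the 10 macrophage markers all were tested, Fcgr1 and Cd14 were downregulated, and their summed level was 25860 to 27810 CPM in control and 21430 to 23160 CPM in IL-4-treated samples, of which Lyz2 made up the larger part (23170, 21890 and 23910 CPM in control and 17620, 19410 and 19260 CPM in IL-4-treated BMDMs, log2 fold change -0.29 ± 0.069, FDR 0.00179). Cd79a, Ms4a1, Cd3e, Cd3d, Cd3g, Hbb-bs, Fcer1a and Mcpt8 had 0 counts in all 6 libraries, and the B cell, erythroid and mast cell or basophil lists summed to at most 4.255, 2.394 and 1.32 CPM in any of them.

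Markers of other myeloid or stromal cells were present at lower levels. The dendritic cell list summed to 148.9 to 189 CPM in control and 289 to 390.5 CPM in IL-4-treated samples, nearly all of it Itgax (181, 185 and 147 CPM in control and 381, 327 and 274 CPM in IL-4-treated BMDMs, FDR 0.0149), while Flt3, Ccr7, Xcr1, Siglech and Dpp4 were at 0. Batf3 was the gene of that list called by edgeR, and DESeq2 called the 2 tested members, Batf3 and Itgax, as higher. The osteoclast list summed to 57.5 to 61.4 CPM in control and 86.8 to 105 CPM in IL-4-treated samples. Of its 3 tested members Acp5 was upregulated (log2 fold change 1.26 ± 0.203, FDR 4.13e-06), Ctsk at 0.52 (FDR 0.0279) and Mmp9 at -1.43 (FDR 0.0575) did not pass, and Calcr and Oscar were at 0. Stromal markers summed to 182 to 231 and 130.5 to 223 CPM, neutrophil markers to 170 to 210 and 157 to 189.7 CPM, and eosinophil markers to 20.9 to 32.2 and 20.3 to 36.3 CPM. Il7r carried nearly all of the T and NK cell list (675 to 809.7 and 669 to 744.6 CPM). None of these stromal, neutrophil, eosinophil or T and NK cell markers was called.

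IL-13 shares the type II receptor with IL-4, and both cytokines were given at 10 ng/ml for 12 h, so their responses were compared directly. Of the 9252 genes tested, 6 differed between the cytokines (0.0649%), 1 higher and 5 lower with IL-4, and 643 had an unadjusted p under 0.05. Chil3 was at 1509, 1547 and 1517 CPM with IL-13 and lower with IL-4 (log2 difference -0.95 ± 0.0781, FDR 8.62e-13). Tmem26 was at 111, 89.3 and 120.1 CPM with IL-13 (-0.95 ± 0.149, FDR 0.000188). Pdcd1lg2 was at 36.7, 30.5 and 38.4 CPM (-1.08 ± 0.211, FDR 0.0056) and Irf4 at 23.4, 31.1 and 25 CPM (-1.49 ± 0.249, FDR 0.00041). These 4 genes were upregulated by IL-4 and stood higher still with IL-13.

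Cx3cr1 was at 20.3, 15.3 and 19.5 CPM with IL-13, between the control and IL-4 levels (-1.42 ± 0.283, FDR 0.00666), and was lower with IL-4. Mir6236 was at 23410, 29280 and 27920 CPM with IL-13 and 41030, 50090 and 47690 CPM with IL-4 (0.78 ± 0.0757, FDR 1.4e-10), and its control level of 48980, 45590 and 48620 CPM did not differ from IL-4 by the cutoffs (log2 fold change -0.045, FDR 0.782). Other hallmark genes did not pass the cutoffs of this comparison. Arg1 was at 47.5, 47.5 and 33.9 CPM with IL-13 (-0.49 ± 0.173, FDR 0.425), Mrc1 at 594, 676 and 699 CPM (-0.35 ± 0.0831, FDR 0.0491), Cish at 18.4, 13.6 and 12.8 CPM (-1.63 ± 0.344, FDR 0.0139) and Slc7a2 at 274, 334 and 349 CPM (-0.62 ± 0.0967, FDR 0.000125). The number of genes rested on a library: without IL-4 replicate 3, 2 genes differed.

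**Figure D4:**
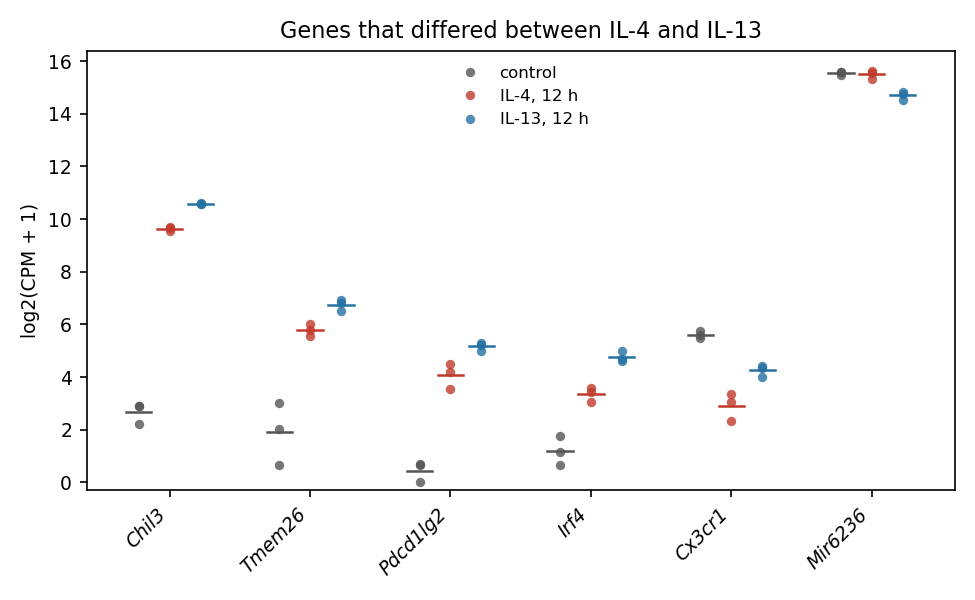
Levels of the 6 genes that differed between the cytokines as log2(CPM + 1), with a point for each of the 3 control (grey), 3 IL-4 (red) and 3 IL-13 (blue) libraries and a line at their mean. Chil3, Tmem26, Pdcd1lg2 and Irf4 rise from control to IL-4 to IL-13, Cx3cr1 is lowest with IL-4, and Mir6236 is lowest with IL-13.

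At the matched time of 12 h the study also holds BMDMs that received 100 U/ml IFN-γ as a priming step before LPS at 100 ng/ml, against the same control samples. The levels below are means ± SD of 3 samples scaled over all 21 BMDM samples, so they differ slightly from those above, and no test between these treatments was made. Mrc1 was at 81.7 ± 6.58 CPM in control, 447 ± 7.87 with IL-4 and 8.97 ± 1.96 with IFN-γ and LPS. Arg1 was at 26.3 ± 1.77 with IL-4 and 0.605 ± 0.625 with IFN-γ and LPS. Both genes were high with IL-4 and low with IFN-γ and LPS.

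Cd14 was at 278 ± 24.6 CPM in control, 74.9 ± 4.08 with IL-4 and 2737 ± 78.2 with IFN-γ and LPS. Tfrc was at 172 ± 8.34, 520.3 ± 7.73 and 33.4 ± 7.01 CPM. These 2 genes lay on opposite sides of the control. Slc40a1 was at 211 ± 12, 45.4 ± 8.58 and 16.1 ± 1.38 CPM, lower than control with either. Slc7a2 (15.6 ± 2.32, 180.3 ± 11.7 and 4110 ± 148 CPM), Cd274 (77.1 ± 6.06, 251 ± 5.92 and 2678 ± 592 CPM) and Socs1 (1.4 ± 1.32, 11.2 ± 4.36 and 88.3 ± 20.4 CPM) were higher than control with either and highest with IFN-γ and LPS.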

How the data were processed

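BMDM RNA was depleted of ribosomal RNA and made into strand-specific libraries (NEBNext Ultra Directional). Per the submitters' processing notes and the study's methods, the authors used CASAVA 1.8.2, trimmed reads with Trimmomatic 0.33, aligned them to mm10 with STAR 2.5.1 and used DESeq2. They deposited raw read counts per gene symbol, unstranded and per strand, without normalization. The annotation release is not given in the sources used here.

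Sense-strand counts without Rn45s of 9 samples (control, IL-4 and IL-13, 3 each) were filtered with filterByExpr, normalized by TMM and fitted with edgeR 4.0.16 (R 4.3.3; robust quasi-likelihood, 1 mean per group). P-values were adjusted by Benjamini-Hochberg over all 9252 genes. The standard error (SE, after ±) was taken as the size of the log2 change divided by the root of the F statistic. A group with 0 counts was given a limit of 3 counts. The cutoffs follow the study. On simulated IL-4 counts of 9252 genes, edgeR found 98 of 100 genes with a log2 change of 1 and 100 of 100 with 2, with 0 false calls, and DESeq2 1.42.0 found 92, 100 and 0. The share found among genes of low level, or with a wider spread between replicates, was not tested. Intervals and limits cover counting error only.

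Replicates were not copies of a library (chi-square per degree of freedom at least 1.46). Genes are named by rule: the 15 largest increases and 10 largest decreases with separate groups and a mean of at least 5 CPM in the higher group, up to 4 called members of each of 51 function lists, all tested members of the alternative activation, receptor and TF lists, 12 marker lists, and the 2 most expressed members of lists with no call. Genes named beyond it to say that they missed the cutoffs, or as stated in the text, were chosen after their values were seen. The comparison and the lists were chosen with earlier results of these data known. The RAW264.7 samples were not used. Alternatives are listed in the closing section. Python 3.11.15 with pandas 2.3.3 and matplotlib 3.10.9 served for tables and plots.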

Additional observations from a re-analysis of the deposited data

Results flagged for a closer look

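The genes below differed between IL-4 and IL-13 in edgeR's direct test of the 2 treatments. The log2 of IL-4 over IL-13 was -0.95 for Chil3 and -0.95 for Tmem26, -1.08 for Pdcd1lg2, -1.49 for Irf4 and -1.42 for Cx3cr1. The last of these is a downregulated gene with IL-4, the others are upregulated. Mir6236 stood at 0.78, and the share of counts on Rn45s was 30.8% to 39.8% in the IL-4 and 31.1% to 39.4% in the IL-13 samples. The part of ribosomal RNA in the Mir6236 value was not tested.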

How the results depend on the processing

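The alternatives were DESeq2, RLE and upper-quartile scaling, at least 1 count or at least 10 counts in every sample as the filter, unstranded counts, Rn45s kept, fits of the 6 samples or of all 21 BMDM samples, a replicate block, the fold cutoff as the null hypothesis, and leaving out each of the 6 libraries. None of the 105 called genes that are named changed direction where it had a value, which 74 had with at least 10 counts in every sample, 103 in the fit of the 6 samples and 104 with unstranded counts. The 205 upregulated genes became 66 with the fold cutoff as the null and 163 to 225 under the other alternatives with all libraries. The 152 downregulated genes became 83 with DESeq2 and 15 with the fold cutoff as the null, and 136 to 180 otherwise. DESeq2 shared 172 upregulated and 83 downregulated genes with edgeR. The upregulated share of calls was 57.4% by edgeR, 67.8% by DESeq2, 81.5% with the fold cutoff as the null and 52.9% with upper-quartile scaling. With a library left out, 182 to 194 genes were upregulated and 117 to 141 downregulated. The comparison of IL-4 with IL-13 gave 6 genes, 3 with DESeq2, 1 with at least 10 counts in every sample, 0 with the fold cutoff as the null, and 2 to 7 with a library left out. The causes were not tested, beyond the stricter null and the fewer genes tested.

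No pairing of samples by the replicate numbers in the labels was seen. Correlations of deviations were -0.0409 to 0.0969 for the same number and -0.0983 to 0.0897 for different numbers. At this depth counting error can hide a weak pairing. With the replicate block, 203 genes were upregulated and 149 downregulated, IL-4 and IL-13 differed in 6 genes, and 104 of the 105 named called genes kept their call, all but Ccr1. Of these 105, DESeq2 kept 88 and lost 17, the 14 named above with Gpsm1, Pilra and Wdr6, and the fits without a library kept 87 to 93. Among the 10 largest decreases were Pilra (log2 fold change -2.18), Adgb (-2.14), Gpsm1 (-1.74) and Wdr6 (-1.68). Adgb kept its call with DESeq2 and in each fit without a library, whereas Pilra, Gpsm1 and Wdr6 also lost theirs in such fits. The depth of 1561898 to 1726210 counts per library without Rn45s in these 6 samples limits genes of low level, and 15158 symbols were not tested.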

Other observations

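Gene families looked up after the values were seen held further called members. Of 18 tested cytosolic aminoacyl-tRNA synthetases, the enzymes that charge tRNAs, 2 were upregulated, Rars (log2 fold change 0.81 ± 0.168, FDR 0.000374) and Yars (log2 fold change 0.93 ± 0.203, FDR 0.00075), 12 had positive fold changes and the median was 0.23. The count was 1 to 2 with a library left out. Of 4 tested Ms4a genes, tetraspanning membrane proteins of myeloid cells, Ms4a6d (log2 fold change 1.41 ± 0.0946, FDR 1.43e-17) and Ms4a7 (log2 fold change 0.77 ± 0.0793, FDR 4.55e-11) were upregulated, and of 5 tested Cd300 genes, receptors of lipids on myeloid cells, Cd300ld (log2 fold change 1.15 ± 0.1, FDR 2.27e-13) and Cd300lb (log2 fold change 0.86 ± 0.0875, FDR 3.77e-11) were upregulated. Both counts remained 2 in each of the 6 fits that left out a library.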
